A study of Mus musculus with 6 samples.

Results

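Non-cycling basal cells of the mouse bladder urothelium were selected by the UMI counts of their marker genes, and 1069 such cells were found among the 56629 cell barcodes of the series. A cell was taken as urothelial if it had more than 500 detected genes, at least 20 UMIs summed over Krt5, Krt7, Krt8, Krt15, Krt18 and Krt19, more than 2 times as many of these as of the stromal genes Col1a1, Col1a2, Col3a1 and Dcn, and no UMI of Ptprc or Pecam1. It was taken as non-cycling if Top2a, Mki67, Birc5 and Ube2c together had no more than 2 UMIs. It was basal if Krt14, Col17a1 and Dlk2 together had at least 2 UMIs and more than the superficial genes Acer2 and Krt20. The basal cells numbered 168 and 433 in the healthy, 163 and 190 in the acute and 61 and 54 in the chronic libraries, of 36511 non-cycling urothelial cells in all. With no UMI of the cell cycle genes allowed, 158 and 421 healthy, 109 and 154 acute and 57 and 50 chronic basal cells were left. Cells with a few cell cycle UMIs were thus a larger part of the acute basal cells than of the others. The remaining 35442 cells, all that did not meet the basal criterion, are called other urothelial cells here, and 11826 of them were superficial. They include 1678 cells with 1 basal UMI and no superficial UMI, so that basal cells with fewer UMIs of these genes can be among them.

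The urothelium is the layered epithelium between urine and the bladder wall. Basal cells form its deepest layer, sit on the basement membrane through integrins and hemidesmosomes, and express Krt5 and the transcription factor p63. They are known as a reserve from which the layers above can be renewed after damage, while the superficial or umbrella cells carry the uroplakin plaques of the urine barrier. Cyclophosphamide (CPP) is a chemotherapeutic drug whose metabolites reach the urine and injure this epithelium.

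The bladder mucosal layer of wild type C57BL/6 mice aged 8 weeks was profiled by droplet-based single-cell RNA-seq in 6 libraries. Healthy mice received no CPP, acutely injured mice were taken 48 hours after CPP, and chronically injured mice had 4 rounds of CPP over 11 days, with 2 libraries for each condition. The series calls the libraries of a condition biological replications but does not tie them to single animals, so that the p-values below measure the spread between these libraries. The questions are how basal cells differ from the rest of the urothelium, and how they differ between healthy, acutely and chronically injured mucosa.

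The tables held 54604109 to 111985678 UMIs per library and 5348 to 15062 barcodes. UMIs summed over the basal cells came to 819060 and 1807712 in the healthy, 753091 and 977462 in the acute and only 210361 and 264400 in the chronic libraries, so that the chronic values are the least precise. Basal cells had a median of 4780 to 8768 UMIs per cell, below the 6033 to 11218.5 of the other urothelial cells in each library. The cells with the highest Scrublet scores were called doublets, at a rate fixed in advance by the number of cells in the library. They were 1.19% to 4.92% of the basal cells and were kept. Between 36 and 229 barcodes were shared by any 2 libraries, none of them by basal cells. Stromal cells, which should lack the basal genes, gave the background: a Krt14 UMI was seen in 0% to 0.652% of them at a median of 2515 to 5057 UMIs per cell, against 0.863% to 4.53% of the non-cycling urothelial cells at 6026 to 11120 UMIs. Col17a1, which 71.3% of the basal cells carried, had a UMI in 0.546% to 2.06% of the stromal against 3.12% to 11.7% of the urothelial cells, with 1.64% against 6.24% in chronic replicate 2, and Dlk2 in 0% to 0.924% against 1.06% to 7.67%. In chronic replicate 2 neither Krt14 nor Dlk2 was seen in the 122 stromal cells, which allows a share of up to 2.46%, above the 0.978% and 1.06% of its urothelial cells. Of the stromal cells 0% to 0.380% met the basal criterion. There 0 of 533 in acute replicate 1 allow up to 0.563% and 0 of 122 in chronic replicate 2 up to 2.46%, above the basal share of 1.17% in that library. The 16 tested fibroblast genes summed to 446 to 1483 CPM in basal cells and 614 to 1394 CPM in other urothelial cells, with acute replicate 2 highest in both. Levels of single genes are given as CPM with TMM scaling, from the UMIs summed over the cells of a class, and sums over marker lists as CPM without TMM, and are compared within a gene.

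The genes that chose the cells are described first, without a test. Krt14, the keratin of basal cells at chromosome 11, 100203162 to 100207548 (minus strand, GRCm38, GENCODE M21), was at 134 and 279.7 CPM in the healthy, 216 and 191 in the acute and 209 and 128 in the chronic libraries. Col17a1, the transmembrane collagen of hemidesmosomes, was at 244 and 259 CPM in the healthy, 274 and 253 in the acute and 223 and 331 in the chronic libraries, and Dlk2, a membrane protein related to Notch ligands, at 182 and 194 CPM in the healthy, 94.2 and 111 in the acute and 251 and 44.9 in the chronic libraries. Krt14 and Dlk2 were lowest in chronic replicate 2, where Col17a1 was highest. Of the basal cells 43.4% had a Krt14 UMI, 71.3% a Col17a1 UMI, 48.5% a Dlk2 UMI and 7.11% all of these. The criterion was met with the smallest possible sum of 2 UMIs in 618 cells (57.8%), and 746 (69.8%) had no UMI of Acer2 or Krt20. Krt5 was at 939 and 1282 CPM in the healthy, 1074 and 1117 in the acute and 1124 and 1084 in the chronic libraries in basal and at 544 and 731, 559 and 596, and 597 and 617 CPM in other urothelial cells, so that it was higher in basal cells of each library. Krt15 was likewise higher and Krt7, Krt8, Krt18 and Krt19 were lower in basal cells of each library.

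Bcam and Itga3 took no part in the choice of cells, but were named as basal markers with earlier results of these data known. Their values and p-values therefore describe the cells and are no independent support of their identity. Both genes were higher in basal cells of 6 of 6 libraries, as were 8.07% of all genes tested. Bcam, the Lutheran laminin receptor, lies on chromosome 7 from 19756131 to 19771016 (minus strand, GRCm38), and Itga3, the alpha chain of a laminin-binding integrin, on chromosome 11 from 95044474 to 95076801 (minus strand). Bcam was at 366 and 307 CPM in the healthy, 226 and 255 in the acute and 269 and 93.2 in the chronic libraries in basal cells and at 99.7 and 113, 67.9 and 87.5, and 79.1 and 50.1 CPM in the other cells of the same libraries. Basal cells of chronic replicate 2 had the least Bcam, 93.2 CPM, which was still within the range of the other cells elsewhere. The log2 fold change was 1.60 ± 0.08 (SE, adjusted p = 1.16e-67, edgeR's quasi-likelihood test with the library as a block). Itga3 was at 243 and 130.5 CPM in the healthy, 161 and 76.4 in the acute and 69.6 and 138 in the chronic libraries in basal cells against 54.9 and 47.6, 48.2 and 29.3, and 28.4 and 49.7 CPM, and the lowest basal value lay above the highest other value. Its log2 fold change was 1.66 ± 0.09 (SE, adjusted p = 2.48e-55). Cells just inside and outside the threshold were graded in both genes, given here as CPM without TMM. With 3 or more UMIs of the basal genes, Bcam was at 268 ± 112 CPM (SD, n = 6 libraries) and Itga3 at 151 ± 80.4 CPM, and with exactly 2 UMIs they were at 252 ± 90.3 and 137 ± 65.5 CPM. In 1678 cells with 1 basal UMI and no superficial UMI, Bcam was at 184 ± 60.8 and Itga3 at 109 ± 56.5 CPM, and in 12892 cells with neither they were at 103 ± 20.9 and 51.7 ± 16.7 CPM.

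The promoters of these markers, of Notch1, which stands out in the injury comparison, and of the luminal gene Upk3a, which goes the other way, are printed from RefSeq (GRCm38.p6), from 250 bases before to 50 after the start of the gene and in its direction of reading.
Bcam, chr7:19770483-19770782, minus strand: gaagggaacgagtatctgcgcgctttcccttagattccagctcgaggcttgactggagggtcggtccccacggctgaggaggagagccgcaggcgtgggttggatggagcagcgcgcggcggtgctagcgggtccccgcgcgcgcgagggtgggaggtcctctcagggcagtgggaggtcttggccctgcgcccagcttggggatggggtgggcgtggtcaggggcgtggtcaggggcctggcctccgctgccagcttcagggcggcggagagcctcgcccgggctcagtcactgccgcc
Itga3, chr11:95076665-95076964, minus strand: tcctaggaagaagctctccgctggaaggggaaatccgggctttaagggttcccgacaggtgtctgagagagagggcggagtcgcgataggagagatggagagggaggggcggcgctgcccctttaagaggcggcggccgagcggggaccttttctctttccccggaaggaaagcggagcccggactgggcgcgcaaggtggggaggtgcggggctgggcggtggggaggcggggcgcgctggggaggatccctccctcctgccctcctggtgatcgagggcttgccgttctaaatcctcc
Notch1, chr2:26503773-26504072, minus strand: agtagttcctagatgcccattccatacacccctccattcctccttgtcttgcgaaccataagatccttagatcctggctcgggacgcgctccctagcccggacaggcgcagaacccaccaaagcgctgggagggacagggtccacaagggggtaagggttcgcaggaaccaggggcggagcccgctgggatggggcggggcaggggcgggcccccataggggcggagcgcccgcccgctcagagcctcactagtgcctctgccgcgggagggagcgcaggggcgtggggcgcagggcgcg
Upk3a, chr15:85016891-85017190, plus strand: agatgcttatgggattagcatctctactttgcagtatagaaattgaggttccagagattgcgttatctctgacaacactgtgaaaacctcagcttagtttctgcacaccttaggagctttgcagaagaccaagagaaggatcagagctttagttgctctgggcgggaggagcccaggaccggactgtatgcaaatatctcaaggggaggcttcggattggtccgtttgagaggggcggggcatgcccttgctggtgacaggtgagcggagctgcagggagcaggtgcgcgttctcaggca
The RefSeq starts of Bcam, Itga3 and Notch1 lie inside the gene bounds that GENCODE M21 gives, for Notch1 far inside, so that these windows are at the RefSeq start and not at the outermost GENCODE one. The Bcam, Itga3 and Notch1 windows are 71.0%, 66.7% and 68.3% G or C with 27, 24 and 23 CG pairs, and the Upk3a window is 52.3% G or C with 9. The median was 64.0% in 1308 genes higher in basal cells, 60.3% in 1539 genes lower and 61.0% in 9949 genes tested. The AP-1 motif TGANTCA and the GATA motif GATAAG were searched on both strands, and neither is in these 4 windows, which says only that these letters are not there. TGANTCA was found in 6.50% of the promoters of genes higher in basal cells, 6.11% of those lower and 5.22% of those tested, and GATAAG in 4.13%, 4.68% and 4.62%. Over all 27025 promoters the shares were 7.93% and 7.43%.

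Basal cells made up 3.05% (95% Wilson interval 2.63 to 3.54) and 6.15% (5.61 to 6.74) of the non-cycling urothelial cells in the healthy libraries, 3.59% (3.09 to 4.17) and 3.35% (2.91 to 3.85) in the acute and 0.666% (0.519 to 0.855) and 1.17% (0.900 to 1.53) in the chronic libraries. Both chronic libraries were below all others, while the acute libraries lay between the healthy ones. The means were 4.60% ± 2.19 (SD, n = 2), 3.47% ± 0.172 and 0.920% ± 0.359. The chronic share was lower than the healthy share by 3.68 percentage points (exact permutation test, p = 0.333, the smallest that 2 libraries against 2 allow), and the acute share by 1.13 (exact permutation test, p = 1.0). Without healthy replicate 2 the acute difference turned to 0.417 points higher and the chronic share was lower by 2.13 points, and without healthy replicate 1 the chronic share was lower by 5.23 points. With each cell thinned to 4000 UMIs and shallower cells left out, the shares were lower, at 1.13% and 3.35%, 1.80% and 1.29%, and 0.300% and 0.445%, and the chronic libraries were still lowest. The cells left out were 1488 urothelial cells (15.9%) in chronic replicate 1 and 0.646% to 3.25% in the other libraries. The intervals cover counting error only. The share depends on what the dissociation released and on which cells reached 2 UMIs of Krt14, Col17a1 and Dlk2.

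Besides the non-cycling cells, 259 cells met the basal criterion with more than 2 cell cycle UMIs. They were 7.18% and 0.915% of all cells that met it in the healthy, 53.4% and 17.7% in the acute and 14.1% and 6.90% in the chronic libraries. Both acute libraries lay above both healthy ones, but far apart from each other (exact permutation test, p = 0.333, the smallest possible here). After thinning to 4000 UMIs, with the same shallower cells left out, the cycling shares were 0% (0 of 63 cells, which allows up to 4.76%) and 0.851%, 40.4% and 10.8%, and 20.7% and 4.55%, from 22 to 235 cells per library, so that chronic replicate 1 then lay above acute replicate 2. Here the cell cycle UMIs were thinned too. The thinned basal shares left cycling cells out by their full counts, and by these the cycling shares were 1.59% and 1.28%, 49.7% and 14.5%, and 20.7% and 9.09%. In the other urothelial cells they were 0.968% and 0.119%, 11.2% and 3.66%, and 1.42% and 1.70% after thinning. A Krt14 UMI was found in 32.7% and 49.2% of the healthy, 46.6% and 42.6% of the acute and 36.1% and 31.5% of the chronic basal cells. The values of the conditions overlapped in part, and since Krt14 was among the genes that chose the cells these shares are a description, with no test.

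**Figure D1:**
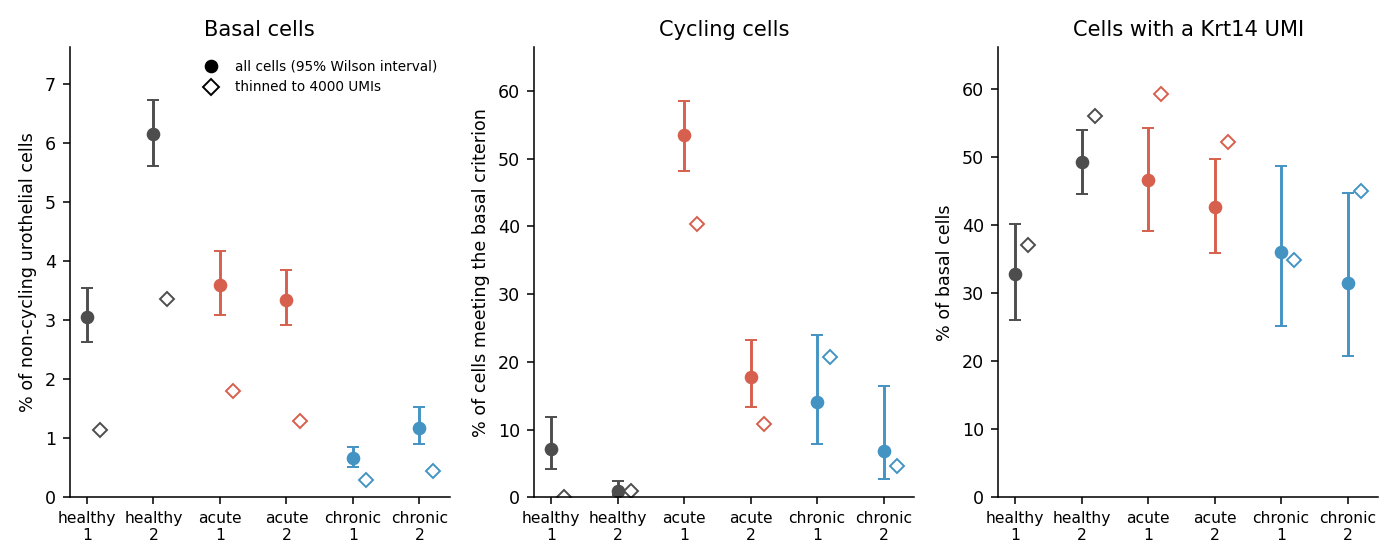
Shares of cells in each library, with healthy libraries in grey, acute in red and chronic in blue: basal cells among non-cycling urothelial cells, cycling cells among those that met the basal criterion, and basal cells with a Krt14 UMI, all in percent. Filled points are all cells with 95% Wilson intervals and open diamonds are cells thinned to 4000 UMIs. In the third panel thinning only chose the cells, and their Krt14 UMIs were counted in full. The chronic libraries have the lowest basal shares (0.666% and 1.17%) and acute replicate 1 the highest cycling share (53.4%).

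Basal cells differed from the other urothelial cells of the same libraries in many genes. Of 13282 genes tested without the genes of the selection, 1710 (12.9%) were higher and 2066 (15.6%) lower (28.4% in all) in basal cells at an adjusted p below 0.05 (1520 in all without the library as a block). Among the largest rises of genes of at least 50 CPM on average were those in Upk3bl, Ly6a, Gm12840, Ptges, Rgs10, Itga3, Klf4, Ptgs1, Cdo1, Bcam and Gm20186, with log2 fold changes from 2.41 down to 1.56. Among genes of at least 50 CPM on average that were lower in 6 of 6 libraries, the largest falls were in Sprr2f, Gm13398, Psca, Upk3a, Fam25c, Hopx, Defb1, Pdzk1ip1, Mfsd4, Snx31, Upk2 and Fmo5, from -2.92 to -1.90. Against superficial cells alone 2166 of 12395 genes (17.5%) were higher and 2470 (19.9%) lower (37.4% in all), and the log2 fold change was larger for Ly6a (2.96 against 2.1), Klf4 (2.40 against 1.65) and Psca (-3.38 against -2.61).

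**Figure D2:**
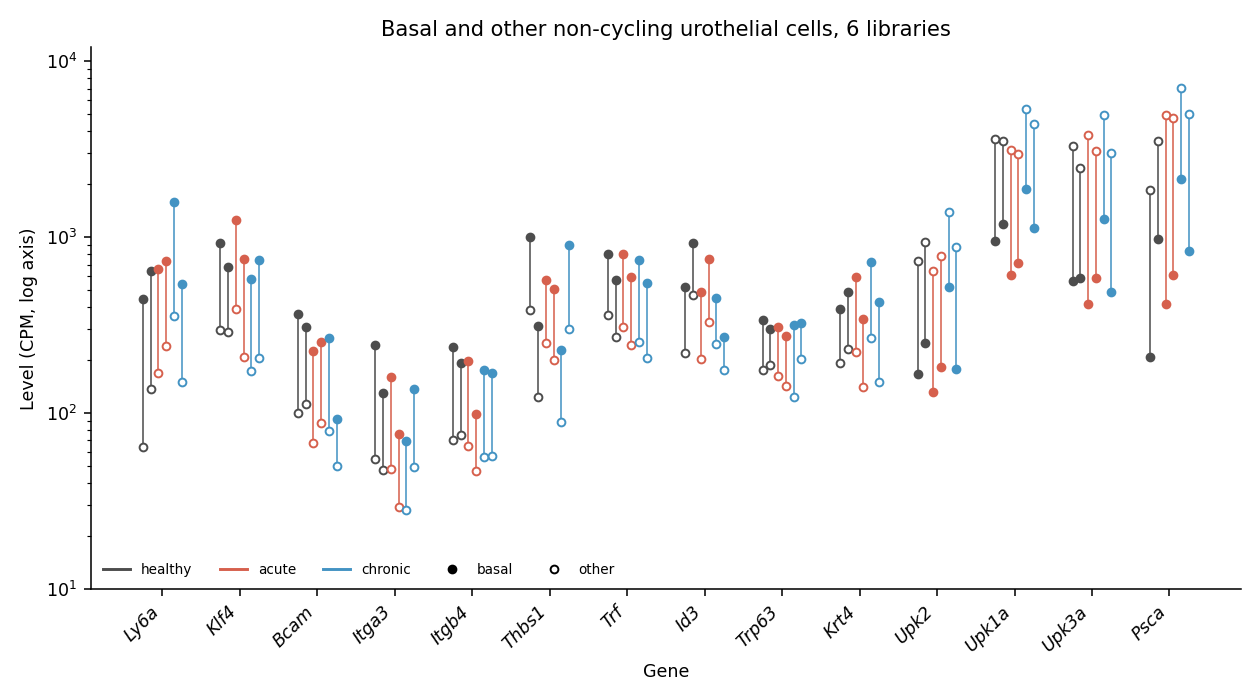
Levels (CPM, log axis) of 14 genes in basal cells (filled) and other non-cycling urothelial cells (open) of the same library, joined by a line, with healthy libraries in grey, acute in red and chronic in blue. From Ly6a to Krt4 the basal value is the higher one in each library, and from Upk2 to Psca the lower one.

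Most genes of adhesion to the basement membrane rose. Of 32 tested genes of hemidesmosomes and basement membrane adhesion 22 were higher and 1 lower, beside 12.9% of all genes higher and 15.6% lower, and their median was 0.69 on the log2 scale, against -0.02 for all genes. Among the integrin chains Itgb4, the beta chain of the hemidesmosome, was at 238 and 193 CPM in the healthy, 197 and 99.0 in the acute and 176 and 169 in the chronic libraries and in other cells at 70.2 and 75.0, 65.0 and 46.8, and 56.5 and 57.3 CPM. Each basal value lay above each value of the other cells, and the log2 fold change was 1.49 ± 0.09 (SE, adjusted p = 2.25e-53). Its partner Itga6 rose by 0.91 ± 0.08, Itgb1 by 0.89 ± 0.08 and Itgb5 by 0.53 ± 0.10 on the log2 scale, and Itgav differed by 0.25 ± 0.11 with an adjusted p of 0.0619 by edgeR. Cells with 1 basal and no superficial UMI had nearly as much Itga6, 223 ± 55.2 CPM without TMM (SD, n = 6 libraries). With exactly 2 basal UMIs it was at 243 ± 91.7, and with neither basal nor superficial UMIs at 140 ± 40.3 CPM. The plakins that tie hemidesmosomes to keratin rose as well, Dst by 0.97 ± 0.07 and Plec by 0.43 ± 0.08. Of the laminin chains Lama3 (0.88), Lamb3 (0.66), Lama5 (0.71) and Lamb1 (1.15) were higher and Lamb2 (-0.47) lower. The anchoring collagen Col7a1 (1.29), the basement membrane collagen Col4a1 (0.97) and the integrin activator Fermt1 (1.02) rose too. Col7a1 lost its call without healthy replicate 2 (0.90), chronic replicate 1 (1.15) or chronic replicate 2 (1.08) and Lamb2 without acute replicate 1 (-0.35). After thinning Col4a1 (0.66) and Itgb5 (0.35) did not pass. For gene values, after thinning means here and below that the thinned counts chose the cells. The UMIs then summed were not thinned and came from fewer basal cells (62 against 168 in healthy replicate 1). Thbs1, thrombospondin, was at 1004 and 312 CPM in the healthy, 570.0 and 511 in the acute and 228 and 904 in the chronic libraries and 388 and 124, 252 and 199.6, and 89.1 and 300.1 CPM in other cells, and its order among libraries was the same in both classes.

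Of 24 genes of basal and progenitor cells 14 were higher and 0 lower, with a median of 0.76, beside 12.9% of all genes higher and 15.6% lower. Ly6a, which encodes the surface antigen Sca-1 (chromosome 15, 74994877 to 74998031, minus strand), was at 444 and 640.3 CPM in the healthy, 664 and 729.9 in the acute and 1579 and 545 in the chronic libraries in basal and at 63.9 and 138, 169 and 239.9, and 357 and 151 CPM in other cells. Chronic replicate 1 was highest in both classes, and the basal values lay above all values of the other cells. In cells with 1 basal and no superficial UMI Ly6a was at 534 ± 271 CPM without TMM (SD, n = 6 libraries). With exactly 2 basal UMIs it was at 756 ± 505, and with neither basal nor superficial UMIs at 242 ± 135 CPM. The transferrin gene Trf rose by 1.28 ± 0.07, the retinaldehyde dehydrogenase Aldh1a1 by 1.16 ± 0.10, the hyaluronan receptor Cd44 by 0.72 ± 0.08 and Igfbp2 by 0.76 ± 0.06 on the log2 scale. The genes of P-cadherin (Cdh3, 1.91), the low-affinity neurotrophin receptor (Ngfr, 2.93) and Wnt10a (2.77) had larger rises at low levels. Wnt10a was at 19.5 and 23.7 CPM in the healthy, 26.0 and 25.8 in the acute and 27.9 and 6.90 in the chronic libraries against 2.22 and 4.19, 3.60 and 3.99, and 2.20 and 1.95 CPM in other cells, which rests on 2 to 43 UMIs per library in basal cells. Wnt4, a ligand of the same family, rose by 0.63 ± 0.07.

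Among 6 tested keratins outside the selection 5 rose and Krt10 fell (-0.37 ± 0.11). Krt4 was at 391 and 492 CPM in the healthy, 597 and 342 in the acute and 724 and 431 in the chronic libraries against 193 and 232, 223 and 142, and 267 and 151 CPM, higher in basal cells of each library, with a log2 fold change of 1.27 ± 0.07. Krt13, Krt6a and Krt16, keratins of squamous and activated epithelia, rose by 1.05, 1.41 and 2.50 from means of 9.07, 6.80 and 1.19 CPM in other cells. Krt10 did not pass without healthy replicate 2 (-0.27) or after thinning (-0.27), nor Krt13 after thinning (0.57). Of 29 transcription factors known in the urothelium 14 rose and 5 fell (median 0.31), beside 12.9% and 15.6% of all genes, so that the share lower was near that of all genes. Trp63, which encodes p63, was at 339 and 300.1 CPM in the healthy, 307 and 273 in the acute and 316 and 324 in the chronic libraries and at 177 and 187, 163 and 143, and 123 and 203 CPM, with little spread among basal sums, and rose by 0.89 ± 0.07. Klf4 (1.65), Fosl1 (1.20), Id3 (1.07), Id1 (0.82), Klf5 (0.75) and Sox2 (0.75) were higher, of which Sox2 did not pass without healthy replicate 1 (0.32), without acute replicate 1 (0.74) or after thinning (0.22). Grhl3, a regulator of terminal differentiation, was lower (-1.01), as was Gata3 (-0.24), and Foxa1 differed by -0.10 (adjusted p = 0.328). Of 23 immediate-early genes 19 rose and 0 fell (median 0.48, with 12.9% and 15.6% of all genes), among them Jund (0.83), Fosb (0.86), Atf3 (0.69) and Fos (0.63). These genes also respond to tissue dissociation, and the part of that was not tested.

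Several genes of ligands and receptors were higher in basal cells. Of 23 genes of Notch, EGF and FGF signalling 11 rose and 4 fell, beside 12.9% and 15.6% of all genes, so that the share lower was near that of all genes. The Notch ligand Dll1 was at 61.9 and 24.8 CPM in the healthy, 22.3 and 15.1 in the acute and 18.6 and 38.0 in the chronic libraries in basal and at 7.20 and 5.78, 5.05 and 2.57, and 2.20 and 4.50 CPM in other cells. The ligand Jag2 was at 52.7 and 46.8 CPM in the healthy, 40.9 and 92.6 in the acute and 27.9 and 55.2 in the chronic libraries in basal and at 12.1 and 16.9, 8.90 and 33.7, and 9.47 and 12 CPM in other cells. Both were higher in basal cells of each library, and Dll1 rose by 2.59 ± 0.20 and Jag2 by 1.75 ± 0.13, while the ligand Jag1 differed by 0.12 (adjusted p = 0.397). The receptor Notch1 had a pooled difference of 0.45 ± 0.08, but in the healthy libraries it was at 172 and 187 CPM in basal and 169.9 and 229 CPM in other cells, and it was 0.082 after thinning (adjusted p = 0.661 by edgeR) and 0.23 with at least 3 basal UMIs (adjusted p = 0.0799 by edgeR). The receptor Notch3 fell by 1.13 ± 0.16 and the target Hes1 rose by 0.77 ± 0.07. Among growth factor genes the EGF receptor ligands Epgn (2.00) and Hbegf (0.85) were higher and Tgfa (-0.74) lower, and of the receptors Egfr (0.44) and Fgfr2 (1.13) were higher and Erbb3 (-0.56) lower. Egfr did not pass without healthy replicate 1 (0.39), acute replicate 1 (0.38) or acute replicate 2 (0.35), or after thinning (0.20). Fgfr2, a receptor of FGF7, was at 116 and 53.4 CPM in the healthy, 53.3 and 56.0 in the acute and 65.0 and 65.6 in the chronic libraries and at 41.1 and 31.2, 26.5 and 29.2, and 20.3 and 23.9 CPM. Its highest basal value was in healthy replicate 1, and the other 5 were alike. Of 21 genes of BMP, TGF-beta and hedgehog signalling 6 rose and 3 fell, the latter near the 15.6% of all genes. Tgfb2 (1.58), the antagonist follistatin Fst (1.57) and the inhibitory Smad7 (1.17) were higher, and Bmp2 (-1.30), Tgfb1 (-0.38) and Bmp7 (-0.35) lower. Tgfb2 did not pass without healthy replicate 1 (1.41) or 2 (0.83) or after thinning (0.81), and Fst not without acute replicate 1 (1.42).

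Most genes of the luminal layers fell. Of 25 tested uroplakin and luminal genes 19 were lower and 4 higher, with a median of -1.19, beside 12.9% of all genes higher and 15.6% lower, so that the share higher was near that of all genes. The choice of basal cells required fewer UMIs of Acer2 and Krt20 than of the basal genes, and the other cells included the superficial ones. The part of this in the falls was not tested. Upk3a, a subunit of the uroplakin plaque (chromosome 15, 85017141 to 85022547, plus strand), was at 560.5 and 587 CPM in the healthy, 415 and 587 in the acute and 1268 and 487 in the chronic libraries in basal and at 3282 and 2481, 3809 and 3089.7, and 4931 and 3022 CPM in other cells. Basal cells of chronic replicate 1 had the most, still below the least of the other cells. The plaque genes Upk2, Upk1a, Upk1b and Upk3b fell, with log2 fold changes of -2.01, -1.89, -1.60 and -1.66. Psca, a GPI-anchored protein, was at 207 and 971 CPM in the healthy, 415 and 608 in the acute and 2131 and 835 in the chronic libraries against 1859 and 3527, 4926 and 4736, and 7057 and 5022 CPM, lowest in healthy replicate 1 and highest in chronic replicate 1 in both classes. Cells with 1 basal and no superficial UMI had Upk1a at 1500 ± 544, Upk2 at 298 ± 140 and Psca at 1067 ± 710 CPM without TMM (SD, n = 6 libraries). With exactly 2 basal UMIs these genes were at 1136 ± 434, 245 ± 139 and 846 ± 627 CPM. With neither basal nor superficial UMIs they were at 2386 ± 723, 536 ± 215 and 1842 ± 1030 CPM. The low level was thus partly shared by the cells just outside the threshold. Tff1, a trefoil peptide, fell by 3.25 ± 0.18, and the claudin gene Cldn4 differed by -0.15 (adjusted p = 0.0707). The 4 luminal genes that were higher in basal cells were Upk3bl, Gsdmc2, Gsdmc3 and Gsdmc4. Upk3bl, annotated as uroplakin 3B-like, was at 132 and 111 CPM in the healthy, 96.6 and 85.0 in the acute and 78.9 and 55.2 in the chronic libraries against 18.1 and 22.0, 19.6 and 19.1, and 17.5 and 9.77 CPM, higher in basal cells of each library, while Upk3b fell. Gsdmc2 and Gsdmc3, which encode pore-forming gasdermins, rose by 1.06 ± 0.07 and 1.31 ± 0.08, and since these copies are near-identical their reads may have been split between them.

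**Figure D3:**
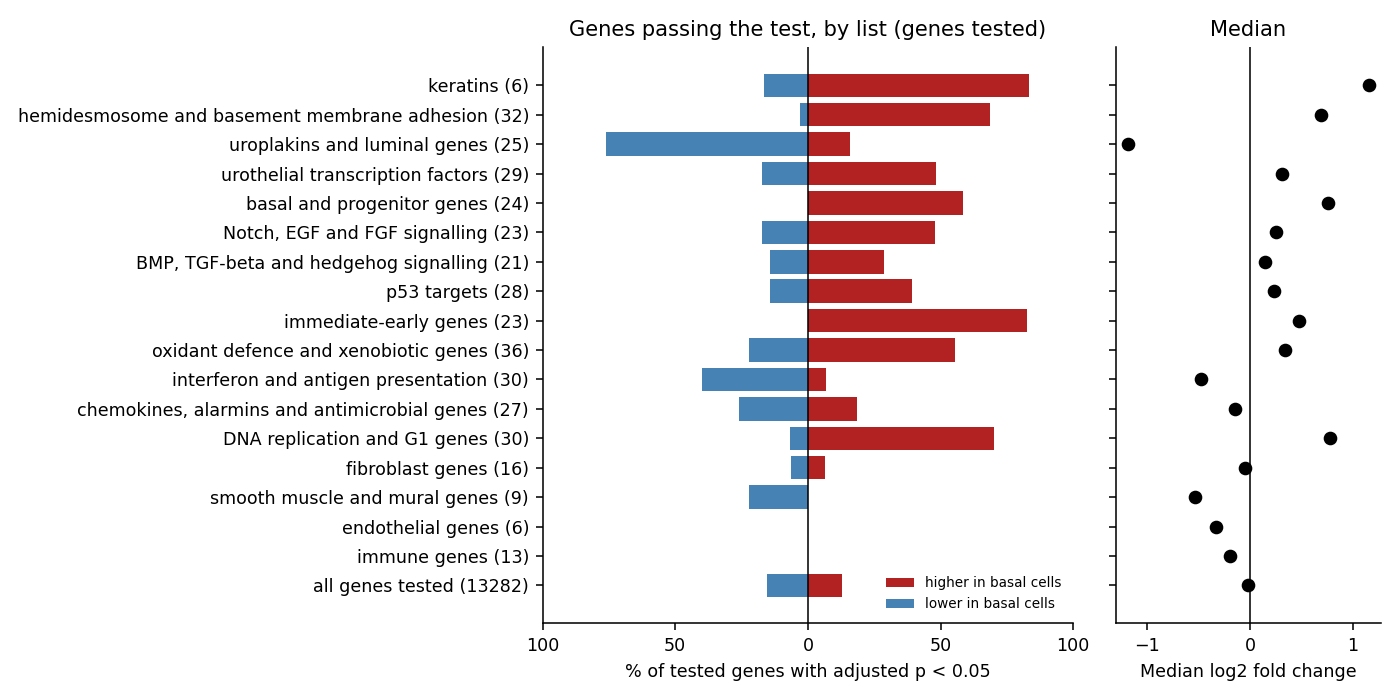
Gene lists in basal against other non-cycling urothelial cells: the percent of tested genes that passed at an adjusted p below 0.05, higher to the right in red and lower to the left in blue, and the median log2 fold change of each list. Adhesion genes (22 of 32 higher) and luminal genes (19 of 25 lower) lie on opposite sides, beside 12.9% and 15.6% of all genes.

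Of 30 genes of interferon response and antigen presentation 12 were lower and 2 higher (median -0.48), beside 15.6% of all genes lower and 12.9% higher. B2m, the light chain of MHC class I, fell by 0.82 ± 0.07 on the log2 scale. The heavy chains H2-K1 (-0.53) and H2-D1 (-0.52) and the immunoproteasome subunits Psmb8 (-1.37) and Psmb9 (-0.67) fell as well, while Ifitm3 rose by 0.50. Psmb9 did not pass without healthy replicate 2 (-0.62) or after thinning (-0.76). Of 27 chemokine, alarmin and antimicrobial genes 5 rose and 7 fell, the former not far from the 12.9% of all genes. Cxcl5, Cxcl17, Ccl20, Csf2, S100a9, Lcn2, Saa1 and Saa3 were not listed for all libraries and so were not tested in any comparison. The alarmin Il33 (0.83) and the NF-kB inhibitors Nfkbia (0.86) and Tnfaip3 (1.30) were higher, and Il18 (-1.49), Il1rn (-1.45) and Defb1 (-2.24) lower. The prostaglandin genes Ptges, Ptgs1 and Ptgs2, which encode prostaglandin E synthase and the cyclooxygenases, rose by 1.86 ± 0.10, 1.65 ± 0.10 and 1.65 ± 0.15. Ptges was at 197 and 139 CPM in the healthy, 138 and 89.3 in the acute and 121 and 89.7 in the chronic libraries against 37.5 and 41.6, 35.8 and 31.7, and 37.1 and 29.7 CPM, with all basal sums above all others.

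Genes of oxidant and xenobiotic defence were higher in 20 of 36 cases and lower in 8 (median 0.34), beside 12.9% and 15.6% of all genes. The aldehyde dehydrogenase Aldh3a1 rose by 1.08 ± 0.07, the cystine transporter Slc7a11 by 0.99 ± 0.17, the glutathione synthesis gene Gclm by 0.70 ± 0.08 and Nqo1 by 0.53 ± 0.07. Gstm1 fell by 0.95 ± 0.06 and Hmox1 by 0.80 ± 0.13. Of 30 genes of DNA replication and G1 phase 21 were higher and 2 lower (median 0.78, with 12.9% and 15.6% of all genes), in cells chosen to have no more than 2 UMIs of mitotic genes. The helicase subunits Mcm6 and Mcm3 rose by 1.52 ± 0.20 and 1.38 ± 0.25, Hells by 2.01 ± 0.23, Ccne2, cyclin E2, by 1.76 ± 0.52, Dut by 1.03 ± 0.10 and Ccnd1, cyclin D1, by 0.78 ± 0.09. Ccne2 did not pass without healthy replicate 1 (1.37). Mcm6 was at 14.9 and 26.4 CPM in the healthy, 32.2 and 12.9 in the acute and 18.6 and 24.2 in the chronic libraries against 5.61 and 6.87, 11.8 and 7.53, and 7.97 and 6.28 CPM, so higher in basal cells of each library, healthy ones included. The inhibitor Cdkn2b fell by 1.14 ± 0.14. Of 28 p53 targets 11 rose and 4 fell (median 0.23), the latter near the 15.6% of all genes, with Cdkn1a, which encodes the cell cycle inhibitor p21, at 1.11 and Pmaip1 at 0.99.

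Markers of other cell types gave these values. Of 16 fibroblast genes outside the selection 1 was higher in basal cells (Sparc, 0.48) and 1 lower. Of 9 smooth muscle genes 2 were lower (Rgs5, -1.24, and Mylk, -1.36). The share lower of the smooth muscle genes was not far from the 15.6% of all genes, and 12.9% of all genes were higher. None of 6 endothelial and 13 immune genes passed the edgeR test. The immune genes summed to 34.5 to 121 CPM in basal and 42.6 to 130 CPM in other cells, the endothelial genes to 0 to 11.0 and 2.55 to 14.6 CPM. Of the red cell genes Hbb-bs had 622 UMIs in basal cells of healthy replicate 2 and 0 to 44 in the other libraries.

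Between the conditions the number of genes called in basal cells depended on the fit. Here genes of the selection stayed in the tested set where they passed the expression filter. In 8246 genes tested at an adjusted p below 0.05 the edgeR test called 0 for acute against healthy, 0 for chronic against healthy and 0 for acute against chronic, where 227, 361 and 319 genes had an unadjusted p below 0.05 and DESeq2 called 2, 4 and 1. With genes of at least 1 UMI tested, edgeR called 47, 26 and 23. Without acute replicate 1, edgeR called 34 for acute against healthy and 14 for acute against chronic. In simulated data edgeR found 74 of 100 genes changed 4-fold in acute against healthy basal cells and 43 of 100 in chronic against healthy, but 14 and 2 of 100 changed 2-fold, and it also called 9 and 5 unchanged genes, more than 5% of its calls in each. Both acute libraries lay above both healthy ones in 14.5% of the genes and below in 15.8%, and both chronic ones above in 14.5% and below in 17.5%. The acute and the chronic comparison share the healthy libraries, and their values are given side by side as a description.

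p53 targets were mostly higher in the injured libraries, without passing the edgeR test. Of 22 tested, 21 had a positive log2 fold change in acute and 21 in chronic basal cells, with medians of 0.77 and 0.73 where all genes had 0.01 and 0.00 and 50.5% and 50% of all genes were positive. Both acute libraries lay above both healthy ones for 14 of them and below for 1 (14.5% and 15.8% of all genes), and both chronic libraries above for 8 and below for 0 (14.5% and 17.5% of all genes). The median was 0.38 without acute replicate 1 and, for chronic, 0.08 without chronic replicate 2 and 1.07 without chronic replicate 1, so that 1 library of each condition carries much of it. In the same cells 8 of 10 fibroblast genes were positive in acute (median 0.74) and 6 in chronic injury (median 0.10), and both acute libraries lay above both healthy ones for 0 of them. The summed level of all 16 fibroblast genes was 906 and 838 CPM in the healthy, 552 and 1483 in the acute and 1155 and 446 in the chronic libraries, so that it was below the healthy libraries in acute replicate 1, where Cdkn1a and Ccng1 were highest. Smooth muscle and mural genes summed to 47.6 and 69.7 CPM in the healthy, 91.6 and 185 in the acute and 52.3 and 106 in the chronic libraries. Immune genes summed to 76.9 and 96.8 CPM in the healthy, 34.5 and 58.3 in the acute and 90.3 and 121 in the chronic libraries. The part of these markers in the p53 values was not tested. Cdkn1a was at 658 and 370.0 CPM in the healthy, 1631 and 726 in the acute and 1156 and 1218 in the chronic libraries. The healthy values were the lowest, and acute replicate 1 was far above acute replicate 2. Its log2 fold changes were 1.20 ± 0.41 and 1.26 ± 0.41 (SE, adjusted p = 1.0 in both, edgeR's quasi-likelihood test). Ccng1, cyclin G1, was at 81.4 and 93.0 CPM in the healthy, 388 and 135 in the acute and 181 and 345 in the chronic libraries (log2 fold changes 1.58 ± 0.45 and 1.65 ± 0.47). Bax, which promotes apoptosis, was at 164 and 153 CPM in the healthy, 305 and 304 in the acute and 228 and 300.2 in the chronic libraries, and the acute libraries were nearly equal (log2 fold change 0.95 ± 0.29, chronic 0.80 ± 0.30). Aen, an apoptosis-enhancing nuclease, gave 1.16 ± 0.41 and 1.34 ± 0.46. Smaller values were seen in other p53 targets, where Btg2 gave 0.09 and 0.05, Perp 0.09 and -0.07, and Rps27l 0.31 and 0.33. Both Btg2 values changed sign without healthy replicate 1, the acute one also without acute replicate 2 and the chronic one without chronic replicate 2. Bax and Aen were picked out after their values were seen.

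**Figure D4:**
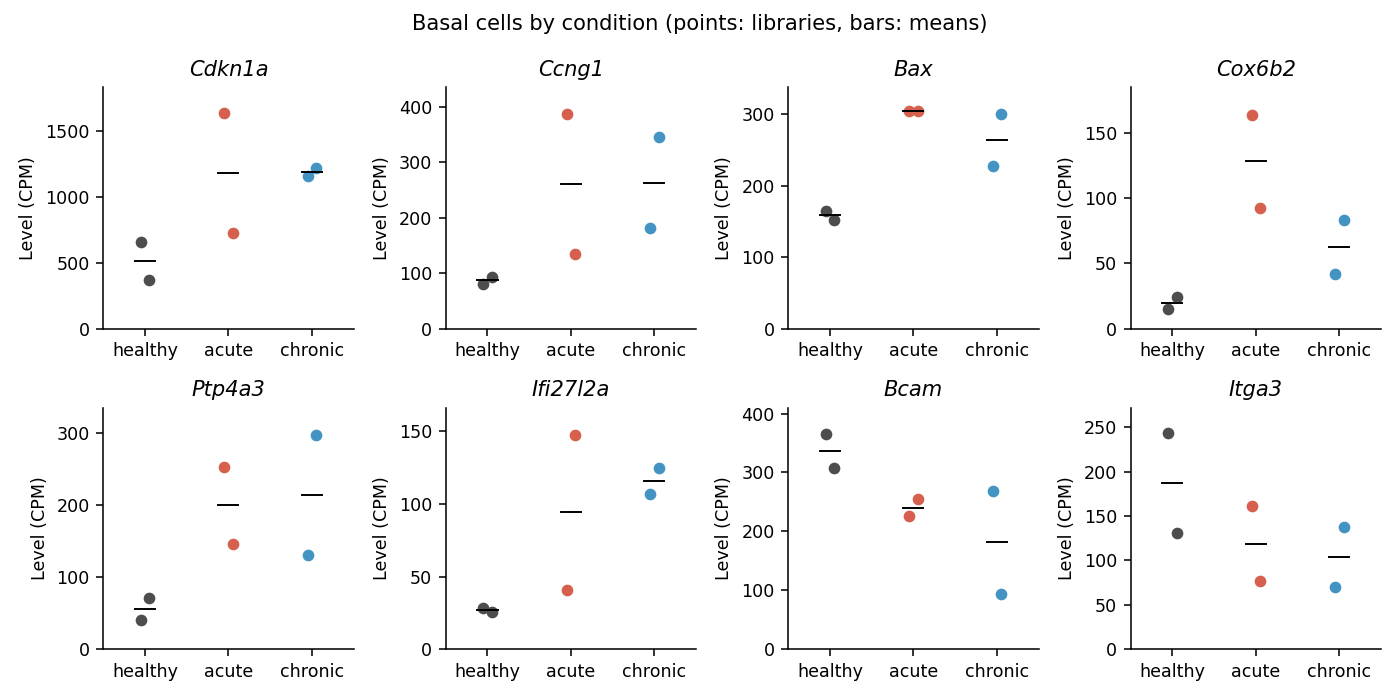
Levels (CPM) of 8 genes in basal cells by condition, 1 point per library and a bar at the mean of 2 libraries, healthy in grey, acute in red and chronic in blue. Cdkn1a, Ccng1, Bax, Cox6b2, Ptp4a3 and Ifi27l2a are higher in both acute and both chronic libraries than in the healthy ones, and Bcam is lower. None passed the edgeR test, while DESeq2 called Cox6b2 in acute injury and edgeR with genes of at least 1 UMI called Cox6b2 in acute and Ccng1, Ptp4a3 and Ifi27l2a in both injuries.

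Among the largest positive fold changes of genes of at least 50 CPM without overlap were, in acute basal cells, those in Cox6b2, Ptp4a3, Ifi27l2a, Gstp1, Ccng1, Ccdc71l, Smox, Kctd12 and Dnajb9 (2.66 down to 1.27) and, in chronic ones, in Ifi27l2a, Ptp4a3, Spin4, Tmem43, Ccdc71l, Gm6133, Cox6b2, Smox, Gm2000 and Ccng1 (2.14 down to 1.65). None of them passed the edgeR test. DESeq2 called Cox6b2 in acute injury (2.69, adjusted p = 0.00118 by DESeq2). With genes of at least 1 UMI tested, edgeR called Cox6b2, Ptp4a3, Ifi27l2a, Gstp1, Ccng1 and Ccdc71l in acute and Ifi27l2a, Ptp4a3, Spin4, Tmem43, Ccdc71l, Gm6133, Smox, Gm2000 and Ccng1 in chronic basal cells. Without acute replicate 1 it called Cox6b2 (2.21), Ifi27l2a (2.46) and Gstp1 (2.28), and without acute replicate 2 it called Cox6b2. Cox6b2, a subunit of cytochrome c oxidase known from testis, was at 14.9 and 24.2 CPM in the healthy, 164 and 92.6 in the acute and 41.8 and 82.8 in the chronic libraries, from 13 and 44 UMIs in the healthy and 9 and 24 in the chronic libraries (acute log2 fold change 2.66 ± 0.41, adjusted p = 0.0904, chronic 1.70 ± 0.48). Gstp1, a glutathione transferase, was at 76.8 and 87.0 CPM in the healthy, 161 and 392 in the acute and 172 and 193 in the chronic libraries, with acute replicate 2 highest. The interferon-inducible Ifi27l2a was at 28.7 and 25.9 CPM in the healthy, 40.9 and 147 in the acute and 107 and 124 in the chronic libraries, where acute replicate 1 lay close to the healthy libraries. Acute replicate 2 was also the only library with other symbols than healthy replicate 2, for 482 gene IDs, and an effect of that was not tested. Gm2000 and Gm6133 belong to ribosomal protein families with near-identical copies and are uncertain.

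On the negative side stood Hbb-bs, Cd74, Socs3, Tnfaip3, Snx31, Pdpn, Ajuba, Fasn, Cdo1 and Nr1d1 in acute (-8.09 to -0.95) and Hbb-bs, AY036118, Cdo1, Dtnb, Peg3, Ajuba, Syne2, Gm42418, Rab20 and Oxct1 in chronic basal cells (-3.73 to -1.31), again without passing the edgeR test. With genes of at least 1 UMI tested, edgeR called Hbb-bs, Cd74 and Socs3 in acute and Hbb-bs, AY036118, Cdo1 and Peg3 in chronic basal cells. Hbb-bs was also called without healthy replicate 1 in both and without acute replicate 1 in acute injury. Hbb-bs, a hemoglobin gene of red cells, had most of its UMIs in healthy replicate 2, and AY036118 and Gm42418 overlap ribosomal RNA repeats. Ajuba, a protein of cell junctions, was at 76.8 and 101 CPM in the healthy, 40.9 and 43.1 in the acute and 27.9 and 31.1 in the chronic libraries, and Nr1d1, the clock repressor REV-ERB alpha, at 225 and 266 CPM in the healthy, 114 and 139 in the acute and 121 and 169 in the chronic libraries. In both genes all injured libraries were below both healthy ones. Socs3, an inhibitor of cytokine signalling, was at 55.0 and 108 CPM in the healthy, 31.0 and 23.7 in the acute and 60.4 and 65.6 in the chronic libraries, lower in both acute libraries than in the other 4.

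The adhesion genes that mark basal cells were mostly lower in the injured libraries, without passing the edgeR test. Of 28 tested, 8 had a positive fold change in acute and 6 in chronic basal cells (medians -0.33 and -0.36), and both acute libraries lay below both healthy ones for 9 and both chronic ones for 11 of them, beside 15.8% and 17.5% of all genes below and 50.5% and 50% of all genes positive. The median for acute was -0.08 without healthy replicate 1, and for chronic -0.12 without chronic replicate 1. The response of basal minus that of other cells had medians of -0.16 and -0.04 in 32 adhesion genes, beside -0.01 and -0.11 for all genes. None of the 32 passed by edgeR, as did 0.128% and 0.113% of all genes, so that a fall particular to basal cells was not shown. Bcam gave log2 fold changes of -0.48 ± 0.39 and -0.86 ± 0.41, Itga3 -0.65 ± 0.43 and -0.76 ± 0.46, Itgb4 -0.54 ± 0.34 and -0.27 ± 0.36, and Dst -0.62 ± 0.33 and -0.74 ± 0.34. Thbs1 gave -0.28 ± 0.56 and -0.15 ± 0.57, which turned positive without healthy replicate 1 (0.81 and 0.92), and Klf4 gave 0.32 ± 0.34 and -0.22 ± 0.34, with signs that turned without acute replicate 1 (-0.066) and without healthy replicate 1 (0.026). Ly6a gave 0.37 ± 0.42 and 1.02 ± 0.43, the latter 0.059 without chronic replicate 1.

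Of 33 genes of oxidant defence 20 were positive in acute and 26 in chronic basal cells (medians 0.14 and 0.47), beside 50.5% and 50% of all genes, but the chronic median was -0.10 without chronic replicate 1. Hmox1, heme oxygenase, was at 20.6 and 20.4 CPM in the healthy, 37.2 and 40.9 in the acute and 46.4 and 55.2 in the chronic libraries, with both injured conditions above the healthy libraries (0.94 ± 0.35 and 1.37 ± 0.40, the latter -0.015 after thinning). Of 24 luminal genes 7 were positive in acute (median -0.19) and 17 in chronic basal cells (median 0.29), where 50.5% and 50% of all genes were positive. The luminal list summed to 23859 and 26682 CPM in healthy and 38513 and 31921 in chronic other cells. In basal cells the sums were 12998 and 17200, and 20964 and 18461 CPM. Basal minus other responses had medians of -0.19 in acute and 0.015 in chronic injury in 25 luminal genes, beside -0.01 and -0.11 for all genes. A chronic rise of the list particular to basal cells was thus not shown. Sprr2f, a small proline-rich protein of stressed epithelium, was at 11.5 and 14.9 CPM in the healthy, 9.91 and 15.1 in the acute and 107 and 93.2 in the chronic libraries, so that only the chronic libraries stood out, with 23 and 27 UMIs (log2 fold change 2.93 ± 0.40, adjusted p = 0.0544 by edgeR). DESeq2 called it (2.98, adjusted p = 0.000909 by DESeq2), as did edgeR with genes of at least 1 UMI, without either acute library and with cells of at least 1 basal UMI or no cell cycle UMIs. In the other urothelial cells it was at 56.2 and 153, 154 and 223, and 452 and 339.9 CPM. Sprr2a3 gave 1.42 ± 0.64 in chronic basal cells and was called only with genes of at least 1 UMI tested. Il33 was at 124 and 170.1 CPM in the healthy, 358 and 209.9 in the acute and 329.7 and 252 in the chronic libraries, above both healthy libraries in each injured one (0.95 ± 0.34 and 1.03 ± 0.35). These genes were picked out after their values were seen.

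Whether basal cells responded otherwise than the other urothelial cells was tested as the difference of the responses within libraries. The log2 response of basal minus that of other cells passed the edgeR test for 17 of 13282 genes in acute injury, 4 higher (0.0301%) and 13 lower (0.0979%, 0.128% in all), and for 15 in chronic injury, 10 higher (0.0753%) and 5 lower (0.0376%, 0.113% in all). The median difference of all genes was -0.01 and -0.11. DESeq2 called 0 in both, as did edgeR without the library as a block. Leaving out acute replicate 1 gave 2 calls and acute replicate 2 gave 11 in acute injury, and leaving out chronic replicate 2 gave 2, healthy replicate 1 gave 5 and healthy replicate 2 gave 31 calls in chronic injury.

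Notch1, a Notch receptor on chromosome 2 from 26457903 to 26516663 (minus strand), was at 172 and 187 CPM in the healthy, 504 and 248 in the acute and 288 and 493 in the chronic libraries in basal cells and at 169.9 and 229, 258 and 185, and 169 and 244 CPM in other cells. Basal sums were close to or below the others in healthy mucosa and lay above the others in all 4 injured libraries. The difference of responses was 0.86 ± 0.17 in acute (SE, adjusted p = 0.000764) and 1.07 ± 0.19 in chronic injury (adjusted p = 5.29e-05). Notch3 was at 8.02 and 8.26 CPM in the healthy, 35.9 and 16.1 in the acute and 13.9 and 38.0 in the chronic libraries in basal and at 43.5 and 34.9, 39.9 and 27.7, and 35.5 and 44.1 CPM in other cells, from 3 to 29 UMIs in basal cells, with differences of 1.80 ± 0.40 (adjusted p = 0.0067) and 1.65 ± 0.54 (adjusted p = 0.545). It was named after its values were seen. Without acute replicate 1 the acute difference was 0.56 for Notch1 and 1.41 for Notch3, and neither passed the edgeR test. Nor did Notch1 pass without healthy replicate 2 (0.70), or Notch3 without healthy replicate 1 (1.64) or 2 (2.04). Without chronic replicate 2 the chronic difference of Notch1 was 0.92 and did not pass. Areg, amphiregulin, a ligand of the EGF receptor, was at 515 and 355 CPM in the healthy, 852 and 385 in the acute and 710.4 and 635 in the chronic libraries in basal and at 513 and 519, 799.7 and 249.8, and 482 and 310.3 CPM in other cells. The basal values were the higher ones in both acute and both chronic libraries. They were nearly equal to the others in healthy replicate 1 and lower in healthy replicate 2. The chronic difference was 1.08 ± 0.17 (adjusted p = 1.69e-06 by edgeR), but 0.84 and not passing without chronic replicate 2.

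Ptp4a3, a protein tyrosine phosphatase, was at 40.1 and 70.5 CPM in the healthy, 253 and 146 in the acute and 130.0 and 297 in the chronic libraries in basal and at 94.2 and 113, 163 and 133, and 169.7 and 198 CPM in other cells. It was the lower of the classes in healthy mucosa and the higher in 3 of 4 injured libraries, with differences of 1.27 ± 0.20 (adjusted p = 1.58e-06) and 1.10 ± 0.23 (adjusted p = 0.002). Ccdc71l gave 0.90 ± 0.21 and 1.03 ± 0.25 and Basp1, in chronic injury, 0.98 ± 0.19. Without acute replicate 1 the acute difference was 0.99 for Ptp4a3 and 0.61 for Ccdc71l, and without chronic replicate 2 the chronic one was 0.48 and 0.37, and none of these passed. Ptp4a3 also lost its chronic call without healthy replicate 1 (0.92), and Ccdc71l its acute call without either healthy replicate (0.84 and 0.96) and its chronic call without each library but chronic replicate 1 (0.37 to 1.12). Basp1 did not pass without healthy replicate 1 (0.73), chronic replicate 1 (0.86) or chronic replicate 2 (1.13). Cdkn1a gave 0.52 ± 0.16 (adjusted p = 0.318 by edgeR) and 0.29 ± 0.16 (adjusted p = 0.986 by edgeR) and did not pass, and its chronic value changed sign without healthy replicate 2. None of the 28 p53 targets passed in either injury by edgeR, where only 0.128% and 0.113% of all genes passed. Their medians were 0.28 and 0.18, beside -0.01 and -0.11 for all genes.

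Other genes had a response that was lower in basal than in other cells. Cdo1, cysteine dioxygenase, was at 275 and 183 CPM in the healthy, 135 and 98.0 in the acute and 92.9 and 48.3 in the chronic libraries in basal cells and at 44.8 and 54.0, 63.1 and 43.8, and 44.3 and 33.6 CPM in other cells. All injured basal sums were below both healthy ones while the other cells ranged from 33.6 to 63.1 CPM, and the differences were -1.04 ± 0.19 (adjusted p = 0.000336) and -1.35 ± 0.27 (adjusted p = 0.00153). Gsdmc2 was at 1073 and 1206 CPM in the healthy, 802 and 526 in the acute and 794 and 687 in the chronic libraries in basal and at 202 and 559, 436 and 313, and 515 and 531 CPM in other cells. Healthy replicate 1 had less than the other libraries in the other cells, and the differences were -0.92 ± 0.16 (adjusted p = 3.27e-05) and -1.25 ± 0.17 (adjusted p = 1.37e-09). In chronic injury Gsdmc3 (-0.98 ± 0.20), the imprinted gene Peg3 (-1.02 ± 0.24) and Ccnd2, cyclin D2 (-1.0 ± 0.19), differed in the same direction. Peg3 was at 258 and 334 CPM in the healthy, 250.3 and 267 in the acute and 60.4 and 131 in the chronic libraries in basal cells, lowest in chronic replicate 1. In acute injury Cd74 (-1.22 ± 0.27), Snx31 (-1.22 ± 0.24) and Fam25c (-0.89 ± 0.18) passed. Cd74, a chaperone of MHC class II known from immune cells, had 137 UMIs in basal cells of healthy replicate 1 and 5 in those of acute replicate 1, and Fam25c changed direction without healthy replicate 2 (0.28). Without healthy replicate 1 the acute and chronic differences were -0.67 and -0.94 for Cdo1 and -0.33 and -0.62 for Gsdmc2, the chronic one was -0.37 for Gsdmc3 and -0.90 for Peg3 and the acute one -0.48 for Cd74, and none of these passed the edgeR test. Calls were also lost without acute replicate 1 for Cdo1 (-1.02), Cd74 (-1.16), Snx31 (-0.84) and Fam25c (-0.47), without acute replicate 2 for Gsdmc2 (-0.87) and Cd74 (-1.63), and without healthy replicate 2 for Snx31 (-0.67). In chronic injury they were lost without chronic replicate 2 for Cdo1 (-1.10), Gsdmc3 (-0.89), Ccnd2 (-0.87) and Peg3 (-1.22), and of the fits with 1 library left out Peg3 passed only in the one without healthy replicate 2.

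**Figure D5:**
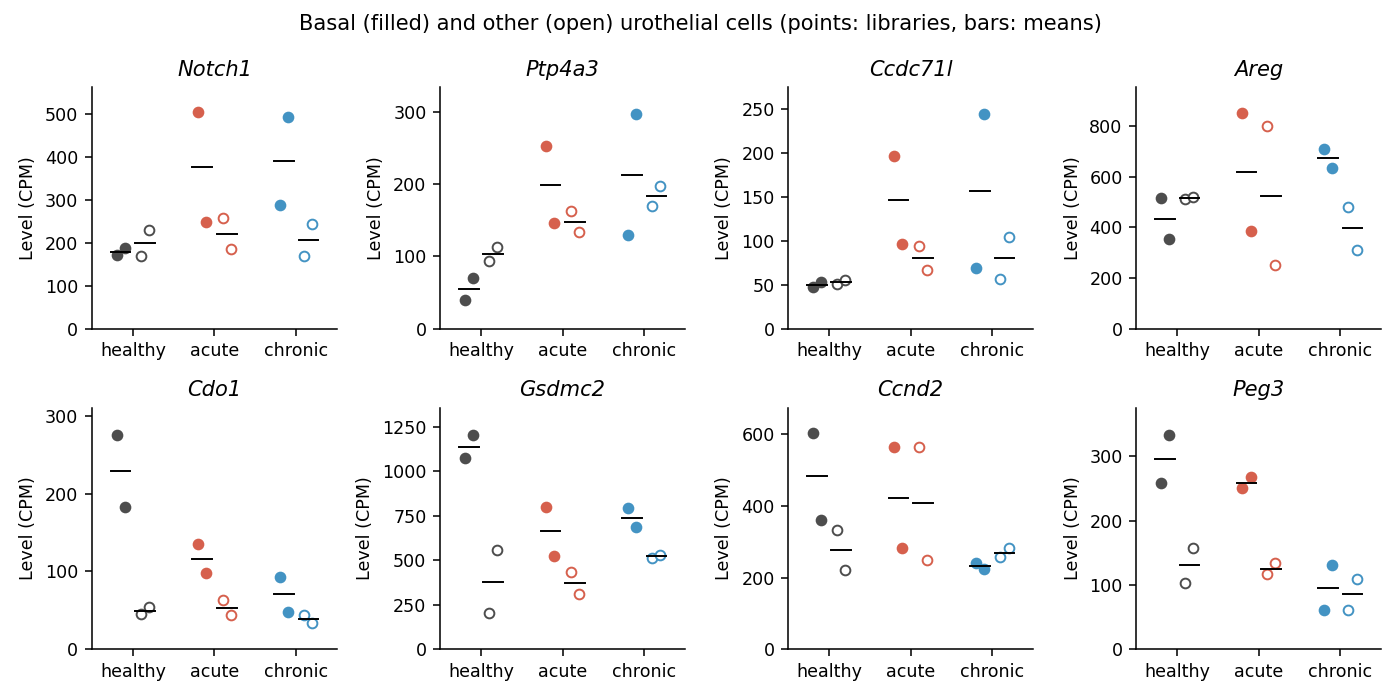
Levels (CPM) of 8 genes in basal cells (filled) and other non-cycling urothelial cells (open) by condition, 1 point per library and a bar at the mean of 2 libraries. Notch1 and Ccdc71l are higher in basal than in other cells of each injured library and Ptp4a3 in 3 of 4, while Cdo1 and Gsdmc2 are highest in healthy basal cells (275 and 183 CPM, 1073 and 1206 CPM).

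Basal cells with and without a Krt14 UMI were compared within libraries over 6704 genes, with the selection genes left out. The split uses a gene of the selection: Krt14-negative cells had to have at least 2 UMIs of Col17a1 and Dlk2 together, while 116 of the 464 Krt14-positive cells had UMIs of Krt14 only among the 3 genes. The groups were thus chosen by different criteria, and the counts and differences describe this split and support nothing about Krt14. The edgeR test called 16 higher (0.239%) and 19 lower (0.283%, 0.522% in all) in Krt14-positive cells, and DESeq2 and edgeR without the library block called 0. Leaving out healthy replicate 1 gave 20 calls, healthy replicate 2 gave 11, acute replicate 2 gave 13 and chronic replicate 1 gave 57. The largest positive log2 differences among the called genes of at least 50 CPM on average were in Dapl1 (0.67 ± 0.15), the chromatin protein Hmgn2 (0.60 ± 0.16), Cyr61, a matrix protein induced by YAP (0.56 ± 0.12), Gm20186 (0.50 ± 0.11) and Tnfrsf12a, the receptor of TWEAK (0.49 ± 0.11). Dapl1 was at 93.4, 165, 108, 242, 80.9 and 28.3 CPM in Krt14-positive and at 35.2, 137, 86.1, 95.4, 67.7 and 20.6 CPM in Krt14-negative cells of the 6 libraries (healthy, acute and chronic replicates in this order). It was higher in the positive cells of each library. The largest negative ones at that level were in Hbb-bs (-2.27 ± 0.18), Cd74 (-0.93 ± 0.21), the adhesion molecule Alcam (-0.68 ± 0.14), Rnf181 (-0.64 ± 0.16) and the uroplakin Upk3b (-0.63 ± 0.15). All 3 tested red cell genes, Hbb-bs among them, were called lower (median -2.27), beside 0.283% of all genes. Alcam was at 48.6, 108, 98.9, 68.0, 121 and 113 CPM in positive against 108, 153, 163, 142, 152 and 119 CPM in negative cells. The Hbb-bs value rests on healthy replicate 2 and was 0.055 after thinning, and Cd74 turned to 0.36. Cd74 also rests on healthy replicate 1, without which it was -0.28 (adjusted p = 0.932 by edgeR), and Hbb-bs was -0.58 without healthy replicate 2. Without acute replicate 2 the edgeR test was not passed by Dapl1 (0.45), Hmgn2 (0.58), Cyr61 (0.59), Gm20186 (0.50), Tnfrsf12a (0.37), Alcam (-0.59), Rnf181 (-0.54), Upk3b (-0.61), Upk1a (-0.26), Gstm1 (-0.22) or Stmn1 (0.34). All of these but Alcam and Gstm1 also lost their call without 1 or both of the healthy replicates, and Hmgn2, Rnf181 and Upk3b without acute replicate 1. Other genes called lower were Upk1a (-0.34), Sprr2a3 (-0.53), Gstm1 (-0.27) and Fmo5 (-0.46), and the microtubule regulator Stmn1 (0.37) was called higher.

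Krt14 itself was compared between conditions in cells chosen by Col17a1 and Dlk2 alone, since its own counts then took no part. These numbered 137 and 304 in the healthy, 111 and 128 in the acute and 39 and 41 in the chronic libraries. A Krt14 UMI was found in 17.5% and 27.6% of the healthy, 21.6% and 14.8% of the acute and 0% and 9.76% of the chronic ones, where 0 of 39 cells allow a share of up to 7.69%. Both chronic shares were below both healthy ones (exact permutation test, p = 0.333, the smallest possible), and the acute shares overlapped them (exact permutation test, p = 0.667). Krt14 was at 73.8 and 174 CPM, 96.6 and 54.4 CPM, and 0 and 28.4 CPM. The acute values overlapped the healthy ones and the chronic values lay below both, in few UMIs. The log2 fold change was -0.74 ± 0.49 in acute and -2.84 ± 0.75 in chronic injury (SE, adjusted p = 1.0 in both by edgeR's quasi-likelihood test). The acute value changed sign without healthy replicate 2. With genes of at least 1 UMI tested, the chronic value was -2.91 with an adjusted p of 0.000733 by edgeR. With 1 library left out and the filter as before, it ranged from -9.33 (without chronic replicate 2, where no Krt14 UMI was left in the chronic group and the fitted value is no bound) to -2.07.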

How the data were processed

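Bladder mucosa of mice was measured by droplet 3' single-cell RNA-seq in 6 libraries, 2 each for healthy, acute and chronic CPP injury. The deposited files hold UMI counts per gene and cell, which the authors made with Cell Ranger against mm10 (per the labels), already filtered to a mitochondrial share of at most about 10%. In healthy replicate 1 genes seen in fewer than 8 cells were not listed, and in acute replicate 1 those seen in fewer than 6. 1 incomplete last line was dropped, and the 14450 genes common to the files were used without 97 mitochondrial and ribosomal protein genes. In acute replicate 2, 482 gene IDs had another symbol than in healthy replicate 2, which was so in no other library. For the sums, genes were matched by ID.

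Basal cells, gene lists and tests were chosen with earlier results of these data known. Counts were summed per library and class and tested with edgeR 4.0.16 (R 4.3.3, TMM, quasi-likelihood test, Benjamini-Hochberg, adjusted p below 0.05) on all genes left by its expression filter. The 21 genes of the selection were left out of the comparisons between classes. They stayed among the genes tested between conditions where they passed the filter. Comparisons between classes had the library as a block, and those between conditions used 1 sum per library. Named genes were, per comparison, those with the largest change in each direction at 50 CPM or more among genes that passed (between conditions, among genes without overlap), and members of the lists; others are said to be picked after their values were seen. Some genes that the rule names are not reported here. Cells were ranked by Scrublet score (scanpy 1.11.5), and the top ones were called doublets at a fixed rate of 0.8% per 1000 cells. These doublets were kept. Shares were compared by exact permutation tests, two-sided, and have Wilson 95% intervals (statsmodels 0.14.6). Cells were thinned to 4000 UMIs for shares across depths, leaving out shallower cells. For gene values the thinned counts only chose the cells, and their full counts were summed. Scripts were tested on simulated data. DESeq2 1.42.0, other filters, thresholds and libraries left out were alternatives.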

Additional observations from a re-analysis of the deposited data

Results flagged for a closer look

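The difference between the injury response of basal cells and that of other urothelial cells was tested within libraries, and these genes passed edgeR's quasi-likelihood test, while DESeq2 and edgeR without the library as a block called 0 genes in either injury (145 and 243 genes at an unadjusted p under 0.05 by DESeq2). In acute injury the log2 response was higher in basal cells for Notch3 by 1.80, Ptp4a3 by 1.27, Ccdc71l by 0.90 and Notch1 by 0.86. It was lower, with differences of -1.22 for Cd74, -1.22 for Snx31, -1.04 for Cdo1, -0.92 for Gsdmc2 and -0.89 for Fam25c. In chronic injury it was higher for Ptp4a3 by 1.10, Areg by 1.08, Notch1 by 1.07, Ccdc71l by 1.03 and Basp1 by 0.98, and lower with -1.35 for Cdo1, -1.25 for Gsdmc2, -1.02 for Peg3, -1.0 for Ccnd2 and -0.98 for Gsdmc3. Acute and chronic responses share the healthy libraries, so that a gene listed in both is not 2 independent results.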

How the results depend on the processing

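With 2 libraries per condition, 0 calls between conditions do not show that basal cells did not differ, and chronic basal sums hold the fewest UMIs. Basal against other cells gave 1520 calls and basal against superficial cells 2819 with no replicate block (the library), and 3112 to 3640 for the former with 1 library left out. With 1 library left out, the acute share difference ranged from -2.68 to 0.417 (without healthy replicate 2) and the chronic one from -5.23 to -2.13 (without healthy replicate 2) percentage points. Acute against healthy had 2 calls with DESeq2, 47 with genes of at least 1 UMI, 3 with cells of at least 1 basal UMI, 1 after thinning and 0 to 34 with 1 library left out. Chronic against healthy had 4, 26 and 1 in the first 3 of these, 1 in cells with no cell cycle UMIs and 0 to 3 with 1 left out. Acute against chronic had 1 with DESeq2, 23 with genes of at least 1 UMI and 0 to 14 with 1 left out. The acute response difference had 0 with DESeq2, 0 with no replicate block, 31 with at least 1 basal UMI, 7 after thinning, 7 with at most 2 fibroblast UMIs, 8 with no cell cycle UMIs and 2 to 22 with 1 left out. The chronic one had 0, 0 and 27 in the first 3, 9 with at least 3 basal UMIs, 7 with Krt14 left out of the selection, 8 with at most 2 fibroblast UMIs and 2 to 31. Krt14-positive against negative cells had 0, 0 and 61, 13 with at least 3 basal UMIs, 10 after thinning, 7 with at most 2 fibroblast UMIs, 14 with no cell cycle UMIs and 11 to 57. The cause of these changes was not tested.

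Krt14 in cells chosen without it was between -1.21 and 0.042 (without healthy replicate 2) for acute with 1 library left out, and for chronic between -9.33 (without chronic replicate 2) and -2.07, and at -2.91 and past the threshold with genes of at least 1 UMI. Single genes changed sign as follows, with their range over the libraries left out: Fam25c (acute response difference) -1.69 to 0.28 (without healthy replicate 2), Cdkn1a (chronic response difference) -0.13 (without healthy replicate 2) to 0.73, Hbb-bs 0.055 and Cd74 0.36 (Krt14-positive against negative) after thinning. In acute against healthy, Btg2 was -0.31 (without healthy replicate 1) to 0.68, -0.29 without acute replicate 2 and -0.0071 with Krt14 left out, Thbs1 -0.87 to 0.81 (without healthy replicate 1) and Klf4 -0.066 (without acute replicate 1) to 0.64. In chronic against healthy, Btg2 was -0.37 (without healthy replicate 1) to 0.64, -0.27 without chronic replicate 2 and -0.18 after thinning, Thbs1 -1.47 to 0.92 (without healthy replicate 1), 0.52 without chronic replicate 1 and 0.25 with at least 3 basal UMIs, Klf4 -0.41 to 0.026 (without healthy replicate 1), Hmox1 -0.015 after thinning, and Junb -0.94 to 0.28 (without healthy replicate 2) and 0.22 without chronic replicate 2. Same-numbered libraries deviated with correlations of 0.27, -0.21 and -0.19, so the numbers were not taken to pair them, and the replicate block left 0 calls between conditions. With chronic numbers crossed, chosen after seeing the data, there were 6 calls for chronic against healthy and 1 for acute against chronic.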
